A study of Mus musculus with 9 samples.

Results

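The insulin-like growth factor (IGF) axis was followed in 9 genes, chosen by name and matched by Ensembl ID to the GENCODE M21 symbols: Igf2, H19, Igf2r, Igf1, Igf1r, Insr, Igf2bp1, Igf2bp2 and Igf2bp3. They are 9 of 54232 genes in the table, and all 9 passed the filter on low counts that left 16168 genes for testing. Polyadenylated RNA was sequenced from wild-type mouse embryonic stem cells put through embryoid body differentiation, in which pluripotent cells are grown as aggregates and begin to form the germ layers. The groups EBD2, EBD5 and EBD6 had 3 libraries each, all wild type, and the labels do not state what the number in a group's name stands for, which stem cell line was used or whether replicates were separate cultures. Where replicates were not separate cultures, the spread behind each p-value is that between these libraries and may be technical.

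Libraries held 5453412 to 11703371 counts. EBD2 replicates 1 and 2, and EBD6 replicates 2 and 3, showed no difference beyond sampling noise in a chi-square test of their counts (chi-square per gene 0.949 and 1.01), so each pair was counted as 1 sample and n was 2 for EBD2, 3 for EBD5 and 2 for EBD6. A level is given in CPM, counts scaled to one common library size, and group levels are mean ± SD over these samples. Nuclear ribosomal RNA took 0.726% to 0.811% of counts in the EBD5 libraries, against 0.0165% to 0.0207% in EBD2 and 0.0192% to 0.0247% in EBD6. Processed pseudogenes took 0.986% to 0.997% in EBD5, 0.2% to 0.28% in EBD2 and 0.15% to 0.165% in EBD6. These shares moved with every difference of EBD5 from the other groups given here, and their part in those differences was not tested.

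IGF-II, made from Igf2, and IGF-I, made from Igf1, are small secreted ligands that promote growth through the receptor tyrosine kinase IGF1R, and IGF-II also binds the insulin receptor. IGF2R, the cation-independent mannose 6-phosphate receptor, binds IGF-II and carries it to lysosomes for breakdown. Igf2 and H19 are neighbours in one imprinted domain and share enhancers. Igf2 is expressed mainly from the paternal copy and the non-coding H19 from the maternal copy, while mouse Igf2r is expressed mainly from the maternal copy. The IGF2BP proteins bind messenger RNAs, Igf2 among them, and act on their stability, transport and translation. Allele of origin was not measured.

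The axis differed most in its ligand gene Igf2 and in H19, which rose at both steps, though the second rise of H19 was not called once bins of GC content and length were removed. The RNA-binding protein gene Igf2bp2 fell at both steps, though its first fall lost its call under 6 of 20 alternatives, these bins among them. Igf1r rose at both steps by less than 1.5-fold each time. Between EBD2 and EBD5, 7 of the 9 genes were higher and 1 was lower (edgeR quasi-likelihood test, Benjamini-Hochberg adjusted p under 0.05), with Igf2r not called. That comparison called 70.0% of all tested genes, 34.9% higher and 35.1% lower. Between EBD5 and EBD6, 4 were higher, 2 were lower and 3 were not called, where 70.2% of all tested genes were called, 36.9% higher and 33.3% lower. Between EBD2 and EBD6, 8 were higher and 1 was lower, where 66.1% of tested genes were called, 33.8% higher and 32.3% lower. A change of at least 2-fold was called for 3, 1 and 3 of the 9 genes in the 3 comparisons, against 29.8%, 26.8% and 27.3% of all tested genes. The median log2 fold change of the 9 genes was 0.62, 0.15 and 0.84 in these comparisons, against -0.01, 0.04 and 0.01 over all tested genes. The 3 comparisons share samples, so their results are not independent of each other.

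**Figure D1:**
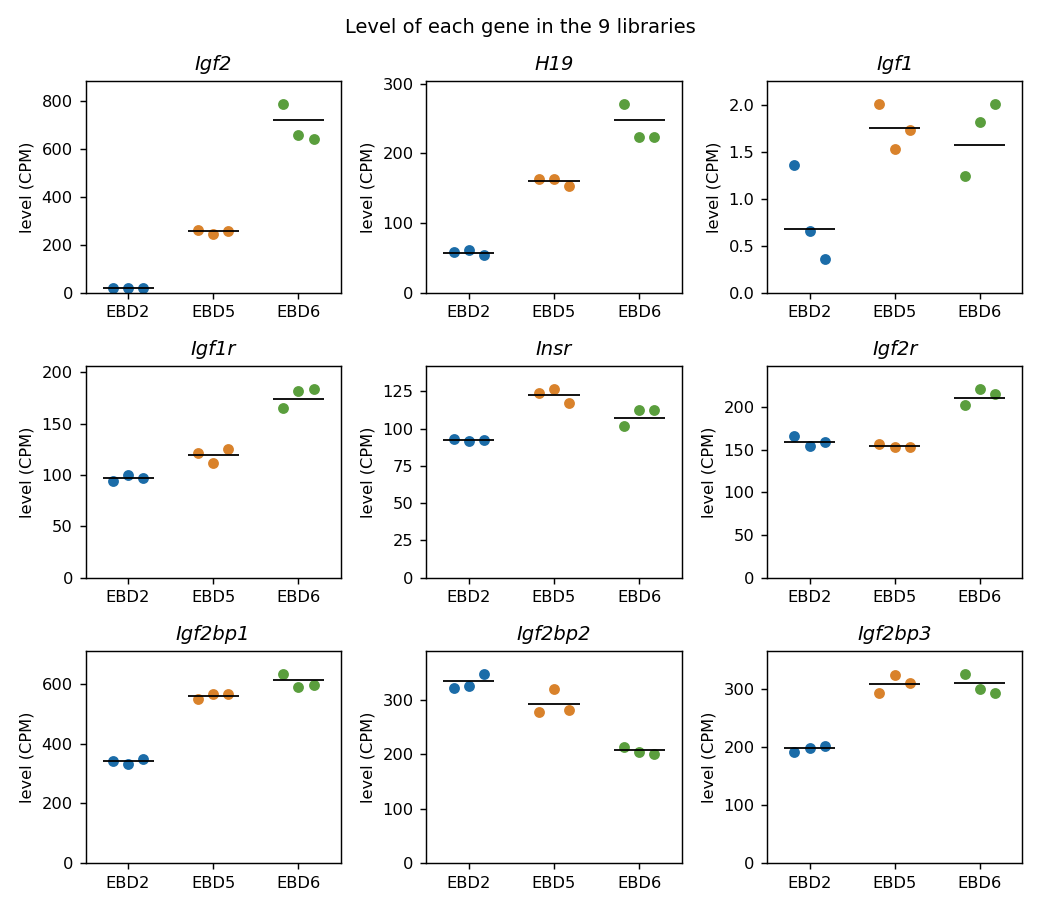
Level of each of the 9 genes in CPM (y axis, from 0) in the EBD2, EBD5 and EBD6 libraries (x axis); points are libraries in the order of replicates 1 to 3, and the line is the group mean with near-identical pairs counted as 1 sample. Igf2 lay between 17.5 and 19.5 CPM in EBD2 and between 642 and 789 CPM in EBD6, while Igf2bp2 lay between 323 and 348 CPM in EBD2 and between 200 and 214 CPM in EBD6.

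Igf2 (ENSMUSG00000048583, chromosome 7, 142650766 to 142666816, minus strand, GRCm38) had 18.1, 19.5 and 17.5 CPM in EBD2 replicates 1 to 3. In EBD5 its levels were 262, 245 and 259 CPM, and in EBD6 they were 789, 660 and 642 CPM. The groups did not overlap, and EBD6 replicate 1 was the highest library. Group means were 18.1 ± 0.913, 255 ± 8.96 and 720 ± 97.5 CPM. The rise from EBD2 to EBD5 was 13.8-fold (log2 3.78 ± 0.11 SE; edgeR adjusted p = 8.28e-10) and that from EBD5 to EBD6 was 2.84-fold (log2 1.51 ± 0.08 SE; edgeR adjusted p = 7.86e-08). From EBD2 to EBD6 Igf2 rose 39.1-fold (log2 5.29 ± 0.12 SE; edgeR adjusted p = 1.45e-10), which placed it 241st from the top of the 16168 tested genes by log2 fold change. Igf2 is richer in G and C than most tested genes, at 55.8% of its longest transcript against a median of 49.5%. With the median change of genes in the same bin of GC content and length removed, the EBD5 to EBD6 change was 0.74 on the log2 scale in place of 1.51.

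Reads of Igf2 may be divided among neighbouring annotations. The read-through gene model Gm49394 lies on the same strand and shares 3596 of its 4738 exon bases with Igf2, which is 62.8% of the Igf2 exons. Gm49394 took 1.24%, 5.13% and 6.03% of the counts of the pair in EBD6 replicates 1 to 3, and no more than 4.25% in any other library. It was therefore lower in the EBD6 library with the most Igf2. Added together, the pair stood at 798.8, 695.9 and 683.0 CPM in EBD6, so that EBD6 replicate 1 was still the highest. The antisense gene Igf2os overlaps 98 Igf2 exon bases on the other strand. It rose from 0.208 ± 0.294 CPM in EBD2 to 26.3 ± 2.31 CPM in EBD5 and 78.8 ± 1.21 CPM in EBD6, and the strand setting of the counting is not given in the sources used here. The rise of Igf2os from EBD5 to EBD6 was 1.60 on the log2 scale, or 0.80 with GC content and length taken into account. Mir483, a microRNA gene in an Igf2 intron, had 0 counts in every library.

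H19 (ENSMUSG00000000031, chromosome 7, 142575529 to 142578143, minus strand) encodes a long non-coding RNA. Its levels were 58.2, 60.7 and 54.7 CPM in EBD2, then 164, 163 and 154 CPM in EBD5, then 271, 224 and 223 CPM in EBD6. As for Igf2, no groups overlapped and EBD6 replicate 1 was the highest library. H19 rose 2.75-fold from EBD2 to EBD5 (log2 1.46 ± 0.09 SE, or 2.06 with GC content and length taken into account; edgeR adjusted p = 1.7e-07) and 4.27-fold from EBD2 to EBD6 (edgeR adjusted p = 1.49e-08). Between EBD5 and EBD6 it rose 1.55-fold (log2 0.63 ± 0.08 SE; edgeR adjusted p = 3.18e-05), a call that did not hold once GC content and length were taken into account (log2 -0.16, edgeR adjusted p = 0.218). The GC content of H19 equals that of Igf2 at 55.8%, near the 82nd percentile of tested genes.

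H19 is also the host of the microRNA gene Mir675, whose 84 bases lie within its exons. Mir675 had 0 counts in every library, and mature microRNAs are not captured by poly(A) selection, so these data do not measure them. The mature products are given here as the known processed products of the H19 transcript, from RefSeq (GRCm38.p6, chr7, minus strand), with the seed, bases 2 to 8, in capitals.
miR-675-5p: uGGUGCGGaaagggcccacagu
miR-675-3p: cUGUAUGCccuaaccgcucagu

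Igf2 and H19 rose by different amounts. The ratio of Igf2 to H19 counts was 0.31, 0.321 and 0.319 in EBD2 replicates 1 to 3. It was 1.6, 1.5 and 1.68 in EBD5, and 2.91, 2.94 and 2.87 in EBD6. The groups did not overlap in this ratio, and in EBD6 it differed little between replicate 1 and the other libraries although both genes were higher in replicate 1. On the log2 scale the ratio was 2.33 higher in EBD5 than in EBD2 and 0.87 higher in EBD6 than in EBD5, each with a two-sided exact permutation p = 0.2. With 3 samples against 2 this is the smallest p that test can give. Together the pair made up at most 0.00832% of library counts in EBD2 and at least 0.0921% in EBD6.

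**Figure D2:**
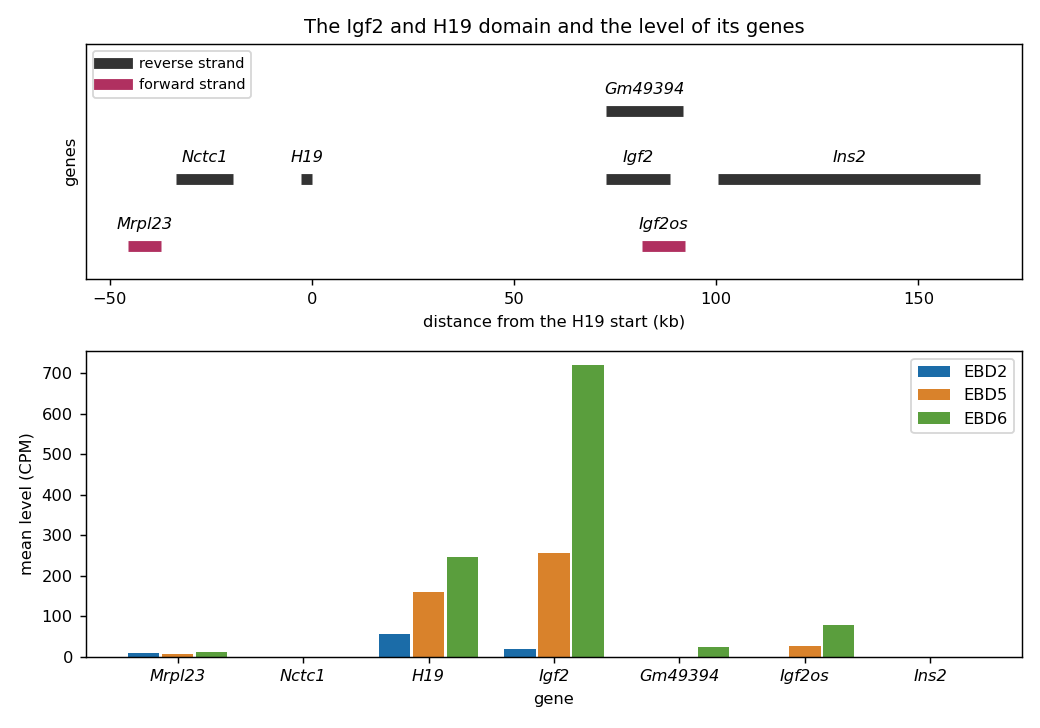
Upper panel, gene models of the Igf2 and H19 domain by distance in kb from the H19 start, grey for the reverse and red for the forward strand; lower panel, mean level of each gene in CPM in EBD2, EBD5 and EBD6 (bars from 0). Igf2, H19 and Igf2os were higher in EBD6 than in EBD2, Nctc1 was below 0.2 CPM in each group, and Ins2 had no count in EBD2 or EBD5.

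Igf1 (ENSMUSG00000020053, chromosome 10, 87858265 to 87937042, plus strand), the gene of the other IGF ligand, was near the lower limit of detection. It had 8, 4 and 2 counts in EBD2, 11, 9 and 9 counts in EBD5, and 7, 20 and 25 counts in EBD6, which correspond to 0.354 to 2.01 CPM. All EBD2 libraries lay below all EBD5 libraries, but EBD6 overlapped both other groups. The call of EBD5 over EBD2 (log2 1.14 ± 0.45 SE; edgeR adjusted p = 0.04) was lost without EBD2 replicate 2, EBD2 replicate 3 or EBD5 replicate 3 (log2 0.999, 0.78 and 1.15; edgeR adjusted p = 0.107, 0.182 and 0.0634), with GC content and length taken into account (log2 0.83, adjusted p = 0.13) and with DESeq2 (log2 1.26, adjusted p = 0.159). The call of EBD6 over EBD2 (log2 1.13 ± 0.43 SE; edgeR adjusted p = 0.0381) was lost without EBD2 replicate 2, EBD2 replicate 3 or EBD6 replicate 3 (log2 0.98, 0.75 and 1.03; edgeR adjusted p = 0.11, 0.205 and 0.0663), with only the compared groups in the fit (log2 1.11, adjusted p = 0.0507) and with DESeq2 (log2 1.14, adjusted p = 0.246). The insulin gene Ins2 had no count in EBD2 or EBD5 and 17 counts over the EBD6 libraries. Against a limit of 3 counts over the EBD5 libraries, Ins2 was at least 3.22-fold higher in EBD6. The second insulin gene, Ins1, had no count in EBD2 or EBD5.

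Igf1r, Insr and Igf2r encode the receptors, and they moved much less than Igf2. Igf1r (ENSMUSG00000005533, chromosome 7, 67952827 to 68233668, plus strand), which encodes the signalling receptor for both IGFs, had 94.2, 99.9 and 97.5 CPM in EBD2. Its levels were 121.9, 112 and 125.3 CPM in EBD5 and 165, 182 and 184 CPM in EBD6, with no overlap between groups. Igf1r rose 1.22-fold from EBD2 to EBD5 (edgeR adjusted p = 0.00475), 1.48-fold from EBD5 to EBD6 (2.22e-05) and 1.80-fold from EBD2 to EBD6 (2.43e-06). Insr (ENSMUSG00000005534, chromosome 8, 3122061 to 3279617, minus strand), the insulin receptor gene, was instead highest in EBD5. It had 93.1, 91.6 and 92.5 CPM in EBD2, 124, 127 and 117 CPM in EBD5, and 102, 113 and 113 CPM in EBD6, again without overlap. The rise to EBD5 was 1.31-fold (log2 0.39 ± 0.07 SE; edgeR adjusted p = 0.000313), and 0.16 on the log2 scale with GC content and length taken into account. The fall from EBD5 to EBD6 (log2 -0.17 ± 0.06 SE; edgeR adjusted p = 0.0386) was lost without EBD6 replicate 1 (log2 -0.09, adjusted p = 0.226), without EBD2 replicate 3, EBD5 replicate 1 or EBD5 replicate 2 (0.064, 0.0828 and 0.0889), and with DESeq2 (0.0803) or no filter (0.295). It was 0.05 with GC content and length taken into account. Insr was 1.17-fold higher in EBD6 than in EBD2 (edgeR adjusted p = 0.0148), a call lost with DESeq2 (0.104) and without EBD2 replicate 3 (0.0684).

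Igf2r (ENSMUSG00000023830, chromosome 17, 12682406 to 12769664, minus strand), the clearance receptor gene, had 166, 155 and 159 CPM in EBD2, 157, 154 and 153 CPM in EBD5, and 203, 222 and 216 CPM in EBD6. EBD2 and EBD5 overlapped, and all EBD6 libraries lay above them. The EBD5 to EBD2 difference was not called (log2 -0.06 ± 0.06 SE; edgeR adjusted p = 0.352), though it was with GC content and length taken into account (log2 -0.15, adjusted p = 0.0358). Igf2r rose 1.384-fold from EBD5 to EBD6 (edgeR adjusted p = 2.9e-05). Relative to its clearance receptor, Igf2 went from a log2 ratio of counts between -3.2 and -2.99 in EBD2 to one between 0.68 and 0.76 in EBD5 and between 1.57 and 1.96 in EBD6. Airn, the non-coding RNA transcribed from within Igf2r on the opposite strand and known for silencing Igf2r on the paternal copy, also rose, from 0.385 ± 0.0435 CPM in EBD2 to 2.33 ± 0.585 CPM in EBD5 and 8.69 ± 0.0119 CPM in EBD6 (log2 4.41 ± 0.34 SE for EBD6 against EBD2; edgeR adjusted p = 7.6e-07). Airn and Igf2r share 0 exon bases.

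**Figure D3:**
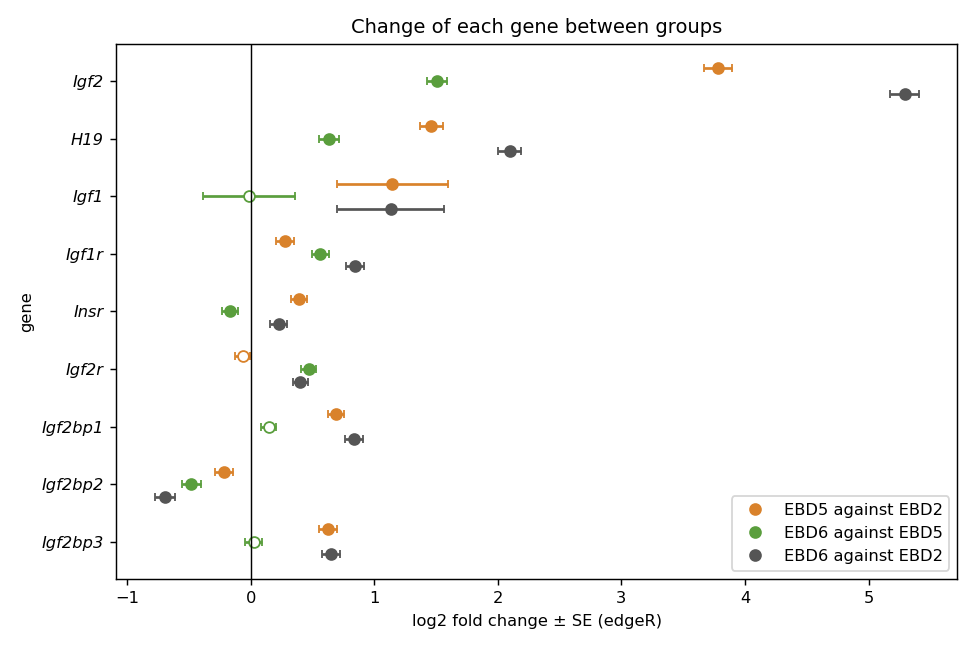
Log2 fold change (x axis) with its SE for each of the 9 genes in the 3 comparisons (colours), from edgeR; filled points were called at an adjusted p under 0.05 and open points were not. Igf2 stood apart with 3.78, 1.51 and 5.29, and Igf2bp2 alone was below 0 in all 3 comparisons.

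The 3 IGF2BP genes did not move together. Igf2bp1 (ENSMUSG00000013415, chromosome 11, 95957163 to 96005940, minus strand) had 343, 334 and 349 CPM in EBD2, 550, 568 and 565 CPM in EBD5, and 634, 591 and 597 CPM in EBD6. Its groups did not overlap, and most of the difference lay between EBD2 and EBD5, where it rose 1.62-fold (edgeR adjusted p = 3.95e-06). Between EBD5 and EBD6 it missed the threshold (log2 0.15 ± 0.06 SE; edgeR adjusted p = 0.0611), but passed with limma-voom (0.0322) and without a filter on low counts (0.00494). Igf2bp3 (ENSMUSG00000029814, chromosome 6, 49085223 to 49214957, minus strand) had 192, 198 and 202 CPM in EBD2, 293, 324 and 310 CPM in EBD5, and 326, 300 and 293 CPM in EBD6. EBD5 and EBD6 overlapped, and both were above EBD2. Igf2bp3 rose 1.54-fold from EBD2 to EBD5 (edgeR adjusted p = 1.42e-05), and its log2 difference of EBD6 from EBD5 was 0.02 ± 0.07 SE (adjusted p = 0.764), or 0.18 with GC content and length taken into account (adjusted p = 0.0416).

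Igf2bp2 (ENSMUSG00000033581, chromosome 16, 22059009 to 22163299, minus strand) went the other way. It had 323, 325 and 348 CPM in EBD2, 277, 320 and 281 CPM in EBD5, and 214, 204 and 200 CPM in EBD6. EBD6 was below both other groups, and EBD5 replicate 2 came within 3 CPM of the lowest EBD2 library. Igf2bp2 was 1.39-fold lower in EBD6 than in EBD5 (log2 -0.48 ± 0.08 SE; edgeR adjusted p = 0.00019) and 1.62-fold lower in EBD6 than in EBD2 (log2 -0.69 ± 0.08 SE; 2.42e-05). The smaller fall from EBD2 to EBD5 (log2 -0.21 ± 0.07 SE; edgeR adjusted p = 0.0246) was lost without EBD2 replicate 3, EBD5 replicate 1 or EBD5 replicate 3 (log2 -0.17, -0.17 and -0.18; edgeR adjusted p = 0.142, 0.112 and 0.0955) and with GC content and length taken into account (log2 -0.17, adjusted p = 0.0926). Malsu1, which encodes a mitochondrial ribosome assembly factor, shares 1529 exon bases with Igf2bp3 on the opposite strand, or 18.7% of the Igf2bp3 exons. Malsu1 stood at 39.8 to 44.8 CPM in EBD2, 67.1 to 78.1 CPM in EBD5 and 59.4 to 72.2 CPM in EBD6, and its part in the level of Igf2bp3 was not tested beyond adding the pair together, which kept the Igf2bp3 calls.

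As a share of the 3 IGF2BP genes by level per kb of exon, Igf2bp2 went from 42.5% to 43.6% in the EBD2 libraries to 28.3% to 30.5% in EBD5 and 21.5% to 22% in EBD6. Igf2bp1 went from 33.4% to 34.6% in EBD2 to 41.4% to 43.7% in EBD5 and 48.7% to 49.5% in EBD6. Igf2bp3 made up 22.9% to 23.6%, 27.5% to 28.3% and 28.8% to 29.7%. Igf2bp2 was thus the largest of the 3 in every EBD2 library and the smallest in every EBD6 library. In EBD5 Igf2bp1 was the largest, and Igf2bp2 and Igf2bp3 had like shares. The order in EBD5 depends on the length used. Divided by the longest transcript, the EBD5 means were 71.1 CPM per kb for Igf2bp3, 67.0 for Igf2bp1 and 59.1 for Igf2bp2.

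The let-7 microRNAs, repressed in stem cells by the Lin28 proteins, are known to target IGF2BP genes. Their seed pairs with the 7 bases CTACCTC of a messenger RNA. In the longest transcript of each gene, an exact match on the transcript strand was found in the 3′ UTR of 7 of the 8 coding genes of the axis, against 10.4% of 13606 tested genes with an annotated 3′ UTR. Long UTRs hold more matches by their length, and the median of tested genes was 1137 bases. The 3′ UTRs of all 8 were longer than that median. The Igf2bp1 3′ UTR of 6337 bases held 4 matches, where 35.27% of genes with a UTR of 80% to 125% of that length held any. Igf2bp2 held 1 match in 1784 bases and Igf2bp3 held 1 in 2119 bases, where 12.32% and 13.68% of genes of like length held any. Among the receptor and other ligand genes, Igf1r held 2 matches and Insr, Igf2r and Igf1 held 1 each, where 38.78%, 26.19%, 10.07% and 34.54% of genes of like length held any. The 3047-base 3′ UTR of Igf2, where 17.49% of genes of like length held any, held 0, and so did all 7 annotated H19 transcripts. The mature let-7a, from RefSeq (GRCm38.p6), and the first match in each IGF2BP gene are shown to set seed and site side by side. Capitals mark the seed, bases 2 to 8, in let-7a and the matching 7 bases in the sites, and the sites are from GENCODE M21 transcripts (GRCm38, minus strand), at chr11:95961777-95961802, chr16:22059472-22059497 and chr6:49086786-49086811.
let-7a-5p: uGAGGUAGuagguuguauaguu
Igf2bp1: gtgctgtgcgaagtaaaCTACCTCaa
Igf2bp2: aaacacacaaataaaagCTACCTCag
Igf2bp3: cgtgcatttttactcaaCTACCTCag

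Each of the 3 IGF2BP genes holds such a match, and Igf2bp2 was lower in EBD6 than in EBD2 while Igf2bp1 and Igf2bp3 were higher. The part of let-7 in these levels was not tested. A match is a description of the letters and does not show that a microRNA binds there. Mature let-7 was not measured.

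To compare genes with each other, levels were divided by exon length and given in CPM per kb. In EBD2 the order began with Igf2bp2 at 45.4 ± 2.30 CPM per kb and Igf2bp1 at 35.5 ± 0.768. Igf2bp3 (24.3 ± 0.610) and H19 (23.2 ± 1.36) followed and did not differ beyond their spread. Igf2r stood at 17.2 ± 0.134, Insr at 6.72 ± 0.00871 and Igf1r at 5.79 ± 0.0187 CPM per kb. Igf2 was 8th of 9 at 3.17 ± 0.159, above Igf1 alone (0.0688 ± 0.0467). In EBD5 H19 was highest at 65.1 ± 2.27, followed by Igf2bp1 (58.0 ± 0.985) and Igf2 (44.6 ± 1.57). Igf2bp2 (39.6 ± 3.18) and Igf2bp3 (37.8 ± 1.93) came next within their spread. In EBD6 Igf2 was highest at 126 ± 17 and H19 next at 101 ± 13.7 CPM per kb. Their SDs overlap, but both genes were highest in EBD6 replicate 1, so this overlap does not measure their difference. The ratio of Igf2 to H19 counts was 2.87 to 2.94 in the EBD6 libraries, with 5723 and 2460 exon bases. Below them were Igf2bp1 (63.4 ± 2.94), Igf2bp3 (38.2 ± 2.55), Igf2bp2 (28.1 ± 1.184) and Igf2r (22.6 ± 1.23). Igf1r (10.4 ± 0.743) and Insr (7.80 ± 0.553) exchanged places between EBD5 and EBD6. By the length of the longest transcript in place of all exons, Igf2 was 8th, 5th and 1st in EBD2, EBD5 and EBD6, and Igf2bp3 was 1st in EBD5.

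The genes whose profile over the 7 samples lay closest to that of Igf2, by Euclidean distance of centred log2(CPM + 1) values among 10656 genes, were Plat (0.397), which encodes tissue plasminogen activator, Tspan12 (0.618), Acta2 (0.642), the smooth muscle actin gene, Glipr1 (0.643) and Gjb2 (0.658). Plat went from 0.905 to 21.0 and 72.7 CPM. H19 was 274th in nearness to Igf2 (3.27). Closest to H19 were Nnat (0.26), another imprinted gene, Krt18 (0.281), a keratin gene of simple epithelia, Capn2 (0.282), Tcaf1 (0.293) and Zyx (0.304). Krt18 went from 82.0 to 219 and 347 CPM. These distances describe 7 samples in 3 groups and carry no test. The 5 genes nearest Igf2 had means of 0 to 1.98 CPM in EBD2, where the added 1 makes a change smaller. The distance also counts the size of a change, so a gene with the same direction and a smaller rise lies further away.

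IGF binding proteins hold IGFs in the extracellular space. Of 6 tested binding-protein genes, EBD5 had 3 higher and 2 lower against EBD2 (median log2 0.52). In EBD6 against EBD5, 4 were higher and 0 lower (0.84). Over all tested genes the shares were 34.9% higher and 35.1% lower, then 36.9% and 33.3%. Igfbp5 rose at each step, from 20.3 ± 1.93 CPM in EBD2 to 60.0 ± 1.48 CPM in EBD5 and 224 ± 4.87 CPM in EBD6 (log2 3.44 ± 0.08 SE for EBD6 against EBD2; edgeR adjusted p = 1.45e-10). Igfbp4 was 2.32-fold higher in EBD6 than in EBD2 (17.4 ± 0.0707 and 40.1 ± 1.53 CPM). Igfbp2 fell from 271 ± 15.4 CPM in EBD2 to 171 ± 4.64 CPM in EBD5 (log2 -0.67 ± 0.06 SE), a call lost with GC content and length taken into account (log2 -0.15, edgeR adjusted p = 0.0984), and stood at 157 ± 9.74 CPM in EBD6. With the same bins its fall from EBD5 to EBD6 was called (log2 -0.79, adjusted p = 8.84e-06), in place of -0.12 without a call. Its fall from EBD2 to EBD6 (log2 -0.79 ± 0.07 SE; edgeR adjusted p = 2.43e-06) had a log2 of -0.94 with the bins and was called with them too. All 4 tested genes of the list of binding-protein proteases and their inhibitors were higher in EBD6 than in EBD2. Of all tested genes, 33.8% were. At each single step 3 of these 4 were higher and 1 was lower. Stc2 was the lower gene in EBD5 against EBD2 and stood at 8.74, 6.28 and 15.5 CPM in EBD2, EBD5 and EBD6. Htra1 was the lower gene in EBD6 against EBD5, a call lost under 7 of 20 alternatives. Pappa, whose product cleaves IGF binding proteins, had no count in EBD2 and 193 counts in EBD6, at least 38.9-fold higher against a limit of 3 counts over the group. Htra1, a secreted serine protease gene, rose from 7.84 ± 1.19 CPM in EBD2 to 40.8 ± 0.856 CPM in EBD5 and stood at 34.0 ± 0.363 CPM in EBD6. The metalloprotease gene Adamts1 rose from 1.11 ± 0.562 CPM in EBD2 to 14.3 ± 0.148 CPM in EBD6.

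Inside the cell, the activated receptors recruit adaptor proteins. Of 11 tested adaptor genes EBD5 had 7 higher and 3 lower against EBD2 (median log2 0.46), 5 were higher and 4 lower in EBD6 than in EBD5 (0.17), and 8 were higher and 0 lower in EBD6 than in EBD2 (0.65). Irs4, an insulin receptor substrate gene, was highest in EBD5, with 15.1 ± 1.3, 266 ± 6.89 and 91.2 ± 5.17 CPM in EBD2, EBD5 and EBD6. Grb10, an imprinted gene whose product restrains signalling by the insulin and IGF receptors, rose at each step, from 28.4 ± 3.50 to 235 ± 8.83 and 350 ± 27.8 CPM (log2 3.60 ± 0.10 SE for EBD6 against EBD2; edgeR adjusted p = 3.8e-10). Irs1 rose 2.5-fold from EBD2 to EBD5, and Shc1 rose from 63.2 ± 0.105 to 127 ± 13.2 CPM. Shc1 was then called lower in EBD6, at 99.2 ± 2.68 CPM (log2 -0.33 against EBD5, or -0.73 with GC content and length taken into account). The 3 adaptor genes lower in EBD5 than in EBD2 were Sh2b2, Irs3 and Sh2b1. Of 22 tested genes of the PI3K and AKT pathway downstream, EBD5 had 11 higher and 7 lower against EBD2. EBD6 had 12 and 6 against EBD5, and 8 and 4 against EBD2. The medians were 0.16, 0.24 and 0.05 on the log2 scale. Beside both lists, 34.9%, 36.9% and 33.8% of all tested genes were higher in the 3 comparisons, and 35.1%, 33.3% and 32.3% lower. Akt1, a kinase gene of this pathway, was 1.98-fold higher in EBD6 than in EBD5 (log2 0.98 ± 0.06 SE, or 0.18 with GC content and length taken into account).

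**Figure D4:**
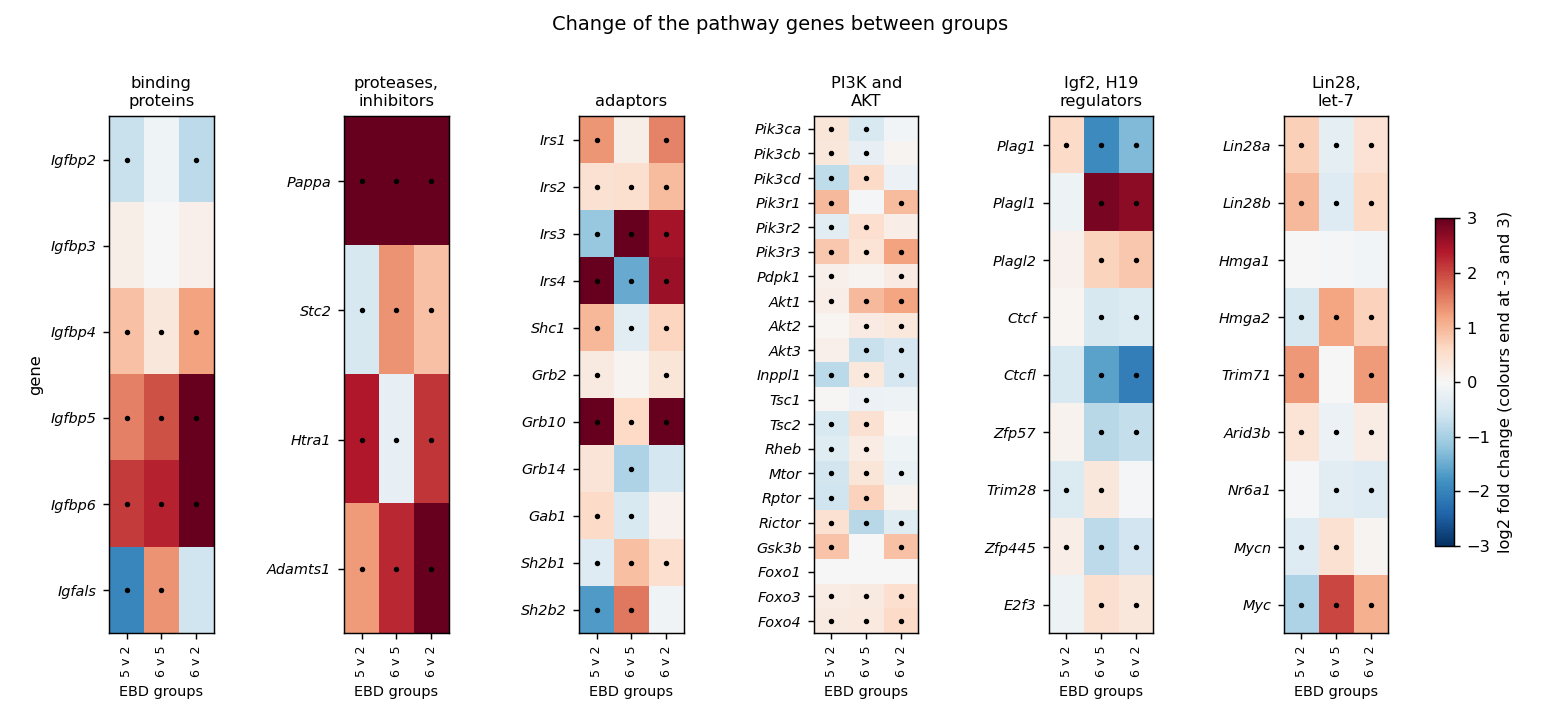
Log2 fold change (colour, ending at -3 and 3) of tested genes of 6 lists (rows) in the comparisons EBD5 against EBD2, EBD6 against EBD5 and EBD6 against EBD2 (columns); a dot marks a call at an adjusted p under 0.05 by edgeR. Igfbp5, Grb10 and Adamts1 were called higher in all 3 comparisons; Pappa had no count in EBD2, so its fitted colour there is no measure of size.

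Among 9 genes for regulators of Igf2 and H19, EBD5 had 2 higher and 1 lower against EBD2 (median log2 0.06). In EBD6 against EBD5, 4 were higher and 5 lower (-0.48). These comparisons called 34.9% of all tested genes higher and 35.1% lower, then 36.9% and 33.3%. Plagl1, an imprinted zinc finger gene whose product is known to act on the Igf2 and H19 domain, stood at 13.2 ± 0.0961 CPM in EBD2, 12.1 ± 0.671 CPM in EBD5 and 85.9 ± 4.37 CPM in EBD6 (7.15-fold higher in EBD6 than in EBD5; edgeR adjusted p = 4.44e-09). Its relative Plag1 went from 25.8 ± 1.36 to 39.1 ± 1.3 and then 10.1 ± 0.721 CPM, and was called at both steps, the first with log2 0.57 or, with GC content and length taken into account, 0.26. Zfp57, which keeps imprints methylated, was 1.77-fold lower in EBD6 than in EBD5. Neither Plagl1 nor Zfp57 was called between EBD2 and EBD5, though Plagl1 was lower in EBD5 with GC content and length taken into account (log2 -0.38, edgeR adjusted p = 0.0119).

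Of 9 genes of the Lin28 and let-7 axis, EBD5 had 4 higher and 3 lower against EBD2. EBD6 had 3 higher and 4 lower against EBD5, and 6 higher and 1 lower against EBD2. The medians were -0.01, -0.07 and 0.44. Of all tested genes, 34.9%, 36.9% and 33.8% were higher in these comparisons, and 35.1%, 33.3% and 32.3% lower. Lin28a (304 ± 24.5, 501 ± 42.6 and 413 ± 22.9 CPM) and Lin28b (84.4 ± 0.796, 168 ± 3.77 and 126 ± 2.45 CPM), which block let-7 maturation, were higher in EBD5 than in EBD2. From EBD5 to EBD6 both were called lower (log2 -0.26 and -0.39), though Lin28b was at 0.08 and not called with GC content and length taken into account. The Lin28a call was lost without EBD5 replicate 3 (edgeR adjusted p = 0.0691) and with EBD5 replicates 1 and 3 summed (0.0564). Trim71, a let-7 target, rose 2.46-fold from EBD2 to EBD5. Hmga2, another target, and Myc were instead lower in EBD5 than in EBD2 and higher in EBD6 than in EBD5. Hmga2 stood at 70.3 ± 2.55, 51.3 ± 2.13 and 116 ± 12 CPM.

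Marker genes were read beside these results. For their counts, EBD5 against EBD2 called 34.9% of all tested genes higher and 35.1% lower. EBD6 against EBD5 called 36.9% higher and 33.3% lower. The 8 pluripotency genes all had counts in every group, with summed levels of 1760 to 1962 CPM in EBD2, 1192 to 1276 CPM in EBD5 and 1150 to 1284 CPM in EBD6. The primitive and parietal endoderm list summed to 297 to 315, 2520 to 2613 and 2567 to 2729 CPM, with all 8 genes higher in EBD5 than in EBD2. In EBD6 against EBD5, 4 of these genes were higher and 3, Dab2, Sparc and Gata6, were lower. The visceral endoderm list summed to 10.3 to 12.7, 2385 to 2434 and 1292 to 1382 CPM, lower in EBD6 than in EBD5, with 4 of its 8 genes called lower and 3 higher. The lateral and extraembryonic mesoderm list summed to 150 to 162, 295 to 318 and 518 to 541 CPM. Its first step rested mainly on Ahnak (69.3 and 243 CPM), with 4 of 8 genes higher in EBD5 than in EBD2 and Vim and Bmp4 lower. The trophoblast list summed to 45.2 to 45.7, 68.6 to 75.1 and 201 to 213 CPM, mostly from Tfap2c in EBD2 and EBD5 (38.4 and 51.9 CPM). Of its 7 tested genes, 4 were higher in EBD5 than in EBD2 and 1, Ascl2, was lower. That of endothelial and blood progenitors summed to 161 to 169, 71.8 to 75.7 and 181 to 204 CPM. The neuroectoderm list summed to 437 to 443, 402 to 421 and 356 to 361 CPM. Its second fall rested mainly on Otx2 (297 CPM in EBD5 and 94.7 CPM in EBD6), which was called lower there, as was Map2. The other 6 of these 8 genes all had a call upward from EBD5 to EBD6 (median log2 of the list 1.07). From EBD2 to EBD5 the list had 3 calls upward and 4 downward. The list for fibroblasts or feeder cells summed to 28.2 to 28.8, 89.9 to 94.8 and 142 to 161 CPM. Most came from Thy1 in EBD2 (22.6 CPM) and from Pdgfra in EBD5 and EBD6 (68.5 and 106 CPM, against 1.5 CPM in EBD2). Thy1 fell at both steps and Lum was at 0 in EBD2 and EBD5. Macrophage genes summed to 22.3 to 24.6, 12.3 to 17.7 and 23.2 to 34.1 CPM, with Adgre1 and C1qa at 0 throughout. The mesoderm, trophoblast and fibroblast sums were higher at each step, as Igf2 and H19 were, though each of these lists held genes called lower at a step. The first rise of the mesoderm sum rested mainly on Ahnak and that of the fibroblast sum on Pdgfra, so these sums do not stand for their lists as a whole. The endothelial sum was lower at the first step. Of the 6 tested genes of that list, 4 were higher in EBD5 than in EBD2 and 2 were lower. The lower genes were Pecam1 (153 CPM in EBD2 and 61.3 CPM in EBD5) and Tal1 (9.66 and 2.01 CPM). In EBD6 against EBD5, 4 were higher and 0 lower. Cdh5, Gata2 and Kdr were called higher at both steps. The primitive and parietal endoderm sum was higher at the first step and overlapped between EBD5 and EBD6. The part of these cells in the rises of Igf2 and H19 was not tested. In these bulk samples a change in the number of cells of a type and a change in RNA per cell cannot be told apart.

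**Figure D5:**
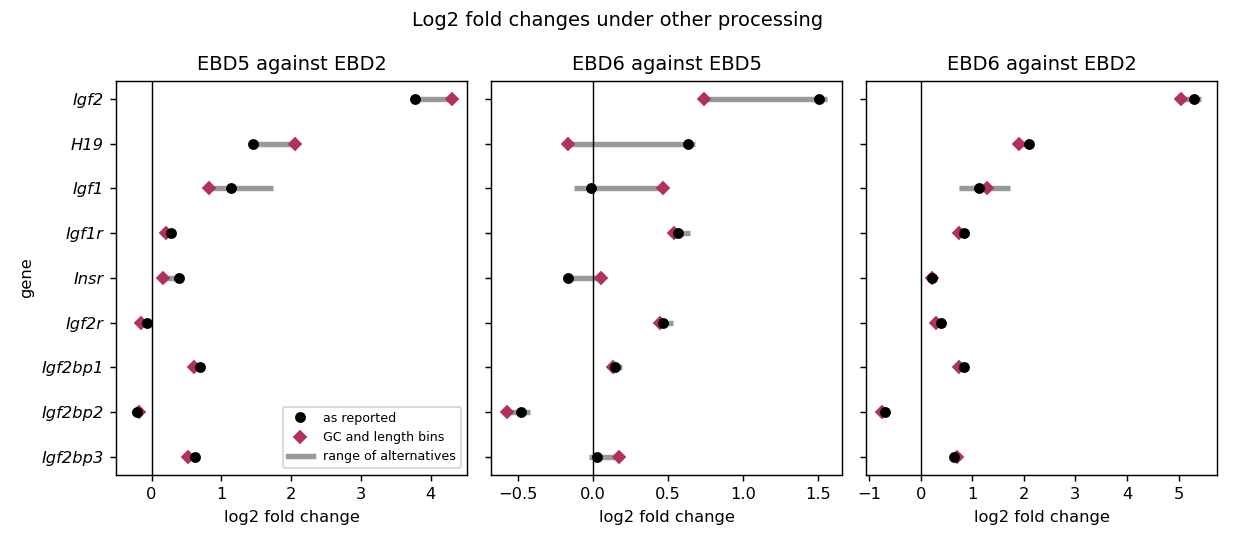
Log2 fold change (x axis) of each of the 9 genes in the 3 comparisons (panels): black points are the values as reported, red diamonds are values with GC content and length bins removed, and grey bars span all alternatives tried. Igf2 stayed above 0 in all 3 panels, while H19, Insr and Igf1 between EBD5 and EBD6 lay on the other side of 0 with the bins.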

How the data were processed

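Polyadenylated RNA was extracted with Trizol, captured on oligo-dT beads and sequenced on HiSeq and NovaSeq instruments, per the labels' protocols. The submitters' processing notes name the build mm10, RSEM 1.3.30, STAR 2.7.10a, cutadapt 1.18, DESeq2 1.38.3 and edgeR 3.40.2, with no roles. The authors deposited expected counts per gene, which need not be whole (90.9% to 94.6% of values were) and carry no scaling for depth or length. Not given in the sources used here are the annotation release and strand setting. GENCODE M21 named 54165 of 54232 gene IDs (99.9%). A row that names no gene held at most 0.0157% of counts and was left out.

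Expected counts were rounded. For genes with 20 or more counts in a pair, replicates were compared by chi-square. The pairs without a difference, EBD2 replicates 1 and 2 (statistic 0.949 per gene) and EBD6 replicates 2 and 3 (1.01), were summed, which left 7 samples. Genes kept by filterByExpr were tested with edgeR 4.0.16 (R 4.3.3) after TMM scaling, by the quasi-likelihood F test, all groups in one fit, with 4 residual degrees of freedom. The SE is the log2 fold change divided by the square root of F. P-values were adjusted by Benjamini-Hochberg over 16168 genes and called under 0.05. On simulated counts for EBD5 against EBD2 with 15460 genes, 72% of 1.5-fold and 90% of 2-fold changes were recovered. The simulation changed 50 genes at each fold of 1.5, 2, 4 and 8 and left the others unchanged. In the data this comparison called 70.0% of tested genes, so these rates need not apply to it. CPM uses TMM-scaled library sizes.

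Alternatives were limma-voom (limma 3.58.1), DESeq2 1.42.0, its size factors, other filters, other sample sets, a 1.5-fold test, a replicate block, and 5 by 5 bins of GC content and length. Summing overlapping genes was added after seeing the data. Members and lists were chosen with earlier results of these data known. From each list the rule allows up to 4 called genes per direction and comparison with the largest change, at 5 CPM or more in a group, plus any gene beside or over the 9 genes. The text names a subset picked after values were seen, and Malsu1, outside that rule, for its overlap. Counts of 0 and limits of 3 counts cover counting error only. One gene of the PI3K and AKT list enters its counts but is not reported here by name or value.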

Additional observations from a re-analysis of the deposited data

How the results depend on the processing

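Over 542 values of the 9 genes under the alternatives, 484 kept their direction and side of the threshold, 41 lost a call, 4 gained one and 13 changed sign. Igf2 kept its direction and call in all 3 comparisons under every alternative, with ranges of 3.74 to 4.30, 0.74 to 1.56 and 5.04 to 5.44 on the log2 scale. Tested against a fold of 1.5, the called genes of the axis numbered 2 (EBD5 against EBD2), 1 (EBD6 against EBD5) and 4 (EBD6 against EBD2), and all called genes 5606, 5317 and 4918, against 11319, 11356 and 10685. Without each library in turn, the called genes of the axis numbered 6 to 8, 5 to 6 and 7 to 9, and all called genes 10240 to 12111, 10280 to 11596 and 9502 to 11010. Signs changed between EBD5 and EBD6 mainly for values near 0. Igf2bp3 was -0.0034 with DESeq2 size factors, -0.0036 with DESeq2, -0.0132 with 9 separate libraries, -0.0196 without EBD5 replicate 1, with a range over single libraries left out of -0.0234 (without EBD6 replicate 1) to 0.0526. Igf1 was 0.0369 and Trim71 0.0374 without a filter, and Igf1 was 0.0109 with 9 libraries and 0.1615 without EBD6 replicate 1, with a lowest leave-out value of -0.1153. With bins of GC content and length, H19 was -0.1625, Igf1 0.4668, Insr 0.0522, Igfbp4 -0.0747 and Lin28b 0.0831; the cause was not tested.

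Replicate numbers did not pair the libraries (correlations of deviations -0.087 to 0.047). With the replicate block, 8, 6 and 9 genes of the axis were called, as without it, and Igf2bp3 was -0.0124 and Igf1 0.0323 between EBD5 and EBD6. Igf1 was not tested under the 5 CPM filter, without EBD5 replicate 1, or, for EBD5 against EBD2, with only the groups compared. With EBD5 replicates 1 and 3 summed, Igf1 and Igf2bp2 lost their calls between EBD2 and EBD5 (adjusted p = 0.058 and 0.0896 by edgeR). With 14 counts in EBD2, depth limits Igf1.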
